A study of Rattus norvegicus with 4 samples.

Results

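The CXC chemokine genes described here are Cxcl1, Cxcl2, Cxcl3, Cxcl6, Cxcl10 and Cxcl16 of the rat, chosen by name and found on the arrays through the accession of each probe. Of these 6 genes, 5 had a probe, and each of the 5 had 1 probe, out of 16581 genes with a named probe on the array. Cxcl3, a neutrophil attractant, matched no probe accession and has no value here. The study measured messenger RNA on 1-colour Agilent arrays in NR8383, a macrophage line started from rat lung lavage that grows partly attached and partly floating. All 4 arrays analysed here are 1 group, biological replicates 1 to 4, whose cells had gone through 20 passages, were seeded for 48 h and then received NM403 carbon nanotubes for 4 h at 0.8 cm2 of material per cm2. The unexposed control cultures that the design also names were not analysed here, so the values below describe exposed cells and show no response to the nanotubes. NR8383 is a single cell line, and values from it stand for that line alone.

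Chemokines are small secreted proteins that guide leukocytes along a gradient, and the CXC group is named for 2 cysteines with 1 residue between them. Cxcl1, Cxcl2, Cxcl3 and Cxcl6 are the neutrophil attractants of the set. They act through the receptor Cxcr2, and some of them also through Cxcr1. Macrophages make them after Toll-like receptor or cytokine signals that pass through the transcription factor NF-kB. Cxcl10 attracts activated T cells and natural killer cells through Cxcr3 and is induced by interferons together with NF-kB. Cxcl16 is made as a membrane protein that can take up oxidised lipoprotein, is cut from the surface by the proteases Adam10 and Adam17, and acts through Cxcr6.

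The promoters are shown first because all the neutrophil attractants with an entry carried 1 NF-kB motif match near the start, and 1 of these 3 genes, Cxcl2, was detected. Sequences are from RefSeq, build GRCr8, whereas the array design names rn4. Of the 6 genes, 5 had a promoter entry, Cxcl3 being the one without. Each line gives 60 bases of the gene strand, from base 110 to base 51 before the transcription start, with the NF-kB match in capitals. They lie on the minus strand at chr14:17479372-17479431 for Cxcl1, chr14:17467306-17467365 for Cxcl2 and chr14:17596468-17596527 for Cxcl6.
Cxcl1: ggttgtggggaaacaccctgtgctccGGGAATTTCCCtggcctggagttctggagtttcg
Cxcl2: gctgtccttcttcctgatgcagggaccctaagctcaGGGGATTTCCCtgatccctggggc
Cxcl6: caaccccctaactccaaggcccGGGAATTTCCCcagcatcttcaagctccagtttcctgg
The match began 84 bases before the start in Cxcl1, 74 bases in Cxcl2 and 88 bases in Cxcl6. Cxcl1 and Cxcl6 held the same 11 letters. In the search, overlapping matches on the 2 strands were joined into 1, and the NF-kB motif was found in 6.33% of 33469 promoters of the same 250 bases.

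Cxcl10 is shown whole over its 250 bases before the start, at chr14:15988816-15989065 on the plus strand, because it was the only one of the 5 with matches to all 3 motifs searched. The other motifs were the interferon-stimulated response element (GAAA, any 2 bases, then GAAA again, found in 3.41% of all promoters) and AP-1 (TGANTCA, in 6.34%), each on both strands. Capitals mark, from left to right, the interferon element, a first and a second NF-kB match and the AP-1 match.
Cxcl10: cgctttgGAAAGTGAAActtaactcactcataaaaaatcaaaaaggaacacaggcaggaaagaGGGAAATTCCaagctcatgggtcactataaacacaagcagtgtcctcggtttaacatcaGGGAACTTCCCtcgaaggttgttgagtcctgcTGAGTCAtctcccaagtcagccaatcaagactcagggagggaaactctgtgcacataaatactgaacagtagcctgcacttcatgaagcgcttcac
The interferon element began 243 bases before the start, the NF-kB matches 187 and 128 bases before it, and the AP-1 match 96 bases before it. The 250 bases of Cxcl16 held none of the 3 motifs. A match describes these letters and does not show that a factor binds there.

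The arrays fell into pairs, and this bears on every spread given below. Across the 7935 genes whose brightest probe was detected on all arrays, Pearson's r reached 0.996 for replicates 1 and 3 and 0.992 for replicates 2 and 4, against 0.967 to 0.970 for the other pairs. These are correlations across genes, which are not independent replicates. Between 45.9% and 50.8% of non-control spots per array were well above background, and the number of arrays limits the precision. Per the file headers the scanner software marked replicate 4 for evaluation and the others as in range. Of 14 macrophage markers, 12 were detected on all arrays, among them Cd68 and Csf1r, while Marco and Adgre1 did not stand well above background anywhere. Of markers of other cells, detection on all arrays held for 1 of 8 epithelial, 1 of 6 fibroblast, 1 of 6 neutrophil, 3 of 5 endothelial and 3 of 6 T cell genes. Over all genes with a named probe it held for 47.9%.

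Transcripts of Cxcl2, Cxcl10 and Cxcl16 were detected on all 4 arrays, and those of Cxcl1 and Cxcl6 were not well above background on any. Detected means that the scanner software called more than 50% of a probe's spots well above background. That is 3 of 5 measured members, against 47.9% of all 16581 named genes, and 2 of 5 detected nowhere, against 40.4%. With 5 genes, these counts are near the background. The chemokines detected were 1 neutrophil attractant, the interferon-induced T cell attractant and the membrane-bound ligand of Cxcr6.

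Cxcl2, also called macrophage inflammatory protein 2, was the 1 neutrophil attractant detected. Its processed signal, the background-corrected spot brightness before scaling, was 932, 943, 699 and 1000.4 on replicates 1 to 4. Replicate 3 was the dimmest and the other 3 arrays lay close together. The spot was 19.4 to 24.2 times as bright as its local background. Scaled levels are log2 values from which each array's 75th percentile, taken over probes detected everywhere, was subtracted. They were -1.54, -1.42, -1.69 and -1.47. Their mean was -1.53 ± 0.12 (SD, n = 4), and the highest array exceeded the lowest by 1.21-fold. Replicate 3 set much of this spread, since the SD was 0.0624 without it. The SD depended on scaling: subtracting the 75th percentile of every non-control probe gave 0.32, the array median also 0.32, and quantile normalization 0.22.

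Cxcl10, also known as interferon-inducible protein 10, was detected by a probe whose spot was 52.4 to 80.7 times as bright as the local background. Its processed signal was 2521, 2937, 1980 and 3389 on replicates 1 to 4. The scaled levels were -0.11, 0.22, -0.19 and 0.29, with a mean of 0.05 ± 0.24 (SD, n = 4). Replicates 2 and 4 were high and replicates 1 and 3 low, with no overlap between the pairs. The highest array exceeded the lowest by 1.39-fold after scaling and by 1.71-fold before it. The percentile of every non-control probe gave an SD of 0.45, the array median 0.42 and quantile normalization 0.24.

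Cxcl16 showed the same order of pairs. Its processed signal was 1279, 1591, 1086 and 1676 on replicates 1 to 4, and its spot was 26.2 to 34.6 times as bright as the local background. The scaled levels were -1.09, -0.66, -1.06 and -0.73, with a mean of -0.88 ± 0.22 (SD, n = 4). Replicates 2 and 4 again lay above replicates 1 and 3, and the full range was 1.34-fold. Scaling on all non-control probes gave an SD of 0.43, the array median 0.41 and quantile normalization 0.29.

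**Figure D1:**
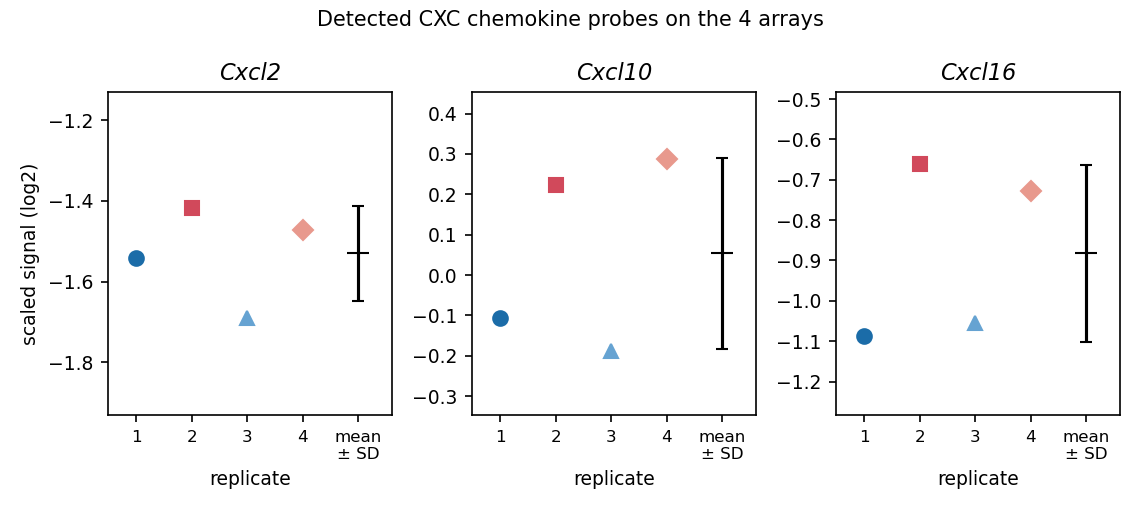
Scaled log2 signal of Cxcl2, Cxcl10 and Cxcl16 on replicates 1 to 4, with the mean and SD over the 4 arrays in black. Each panel has its own axis of equal height. Replicates 2 and 4 lie above replicates 1 and 3 in all 3 panels, least clearly for Cxcl2 (-1.54 on replicate 1 against -1.47 on replicate 4).

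All 3 detected members had both of replicates 1 and 3 below both of replicates 2 and 4. This was a common pattern: of the 7935 genes detected on all arrays, 47.3% had replicates 1 and 3 below, 34.5% had them above, and 81.8% were split in one of these ways. Over all named genes, with no filter on dim probes, 51.3% were split. A split of this kind is therefore common among genes detected on these arrays. Replicate 3 was the lowest array for Cxcl2 and Cxcl10, as for 28.2% of genes. Replicate 4 was the highest for Cxcl10, as for 34.8%, and replicate 2 for Cxcl2 and Cxcl16, as for 23.2%. The split held for all 3 under each scaling and background correction tried. Keeping outlier spots was hardly a check, as no spot of these 3 genes was flagged. Cxcl10 and Cxcl16 differed less within the pairs than between them, and Cxcl2 did not follow this throughout. Replicates 1 and 3 differed by 1.11-fold for Cxcl2, 1.06-fold for Cxcl10 and 1.02-fold for Cxcl16, and replicates 2 and 4 by 1.04-fold, 1.05-fold and 1.05-fold. Between the pairs the folds were 1.26 to 1.39 for Cxcl10 and 1.26 to 1.34 for Cxcl16. For Cxcl2 they were 1.05 to 1.21, and replicate 1 was nearer to replicate 4 (1.05-fold) and replicate 2 (1.09-fold) than to replicate 3. In such bulk RNA, fewer cells making a transcript and less of it per cell cannot be told apart.

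None of the 3 detected members had a range above 2-fold over the arrays, where 13.6% of all 7935 genes did. By SD, Cxcl2 exceeded 20.0% of these genes, Cxcl16 46.0% and Cxcl10 50.6%. The median gene had an SD of 0.234 and a range of 1.40-fold. Repeated probes give the noise within an array. Among repeated probes within 1 log2 unit of each member's level, the median SD of spots within an array was 0.0644 for the level of Cxcl2 (57 probes), 0.0524 for that of Cxcl10 (190 probes) and 0.0585 for that of Cxcl16 (79 probes). The spread between arrays was 1.84 times this spot noise for Cxcl2, 4.51 times for Cxcl10 and 3.74 times for Cxcl16. This sets separate cultures against spots of 1 array, and the same repeated probes themselves had a median SD between arrays of 0.226, 0.221 and 0.233 at the levels of Cxcl2, Cxcl10 and Cxcl16. The 3 probes were printed once each, so their own spot noise was not measured.

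**Figure D2:**
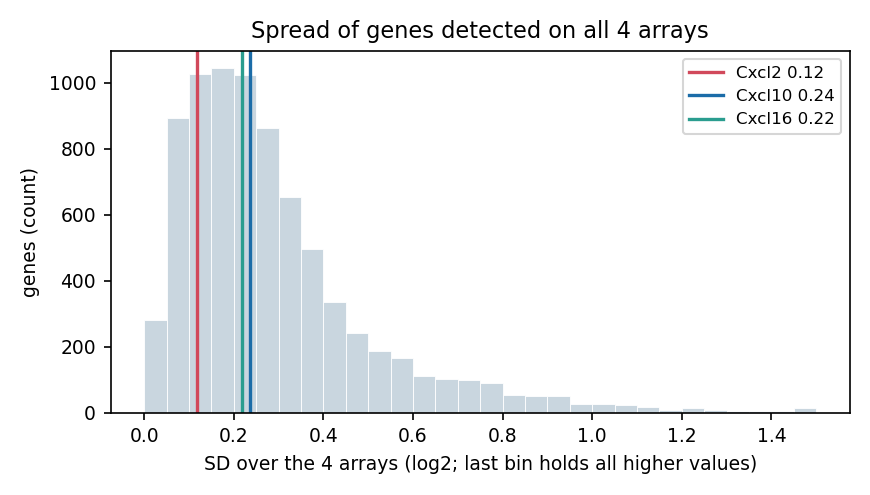
Number of genes by SD over the 4 arrays (log2, bins of 0.05) for the 7935 genes detected on all arrays, with lines at the SD of Cxcl2 (0.12), Cxcl16 (0.22) and Cxcl10 (0.24). The line of Cxcl2 stands left of the centre of the distribution, and the other lines stand near its median of 0.234.

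Differences between members within an array do not change when a constant is subtracted from the array, but they do under quantile normalization. The log2 difference Cxcl10 minus Cxcl16 varied with an SD of 0.07 over the arrays, a range of 1.11-fold. The difference of Cxcl2 from Cxcl10 had an SD of 0.14 and a range of 1.25-fold, and that from Cxcl16 an SD of 0.14 and a range of 1.23-fold. Which members were closest turned with the processing: under quantile normalization, a comparison added after the data were seen, the SD was 0.06 for Cxcl2 and Cxcl10, 0.09 for Cxcl10 and Cxcl16 and 0.11 for Cxcl2 and Cxcl16. Under the main scaling and measured as the root mean square difference of the deviations from each gene's own mean, Cxcl10 and Cxcl16 lay 0.0628 apart. Of all other genes, 10.4% were closer to Cxcl10 than Cxcl16 was. Cxcl2 lay 0.126 from Cxcl10, and 32.2% of genes were closer to Cxcl10 than that.

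Cxcl1, the rat counterpart of the growth-regulated oncogene chemokines and a main neutrophil attractant of rodents, was printed 10 times per array and stayed at background. The spots kept ranged from 7.88 to 9.94 on replicate 1, from 8.09 to 9.87 on replicate 2, from 8.03 to 9.28 on replicate 3 and from 11.3 to 12.8 on replicate 4. On replicates 1 and 2, 1 kept spot each was called significant over background, and on replicates 3 and 4 none was. The software writes a small positive value for spots that do not stand out from background. That value ran from 11.1 to 15.7 on replicate 4 against 7.20 to 10.7 over the other arrays. The median negative control spot read 8.36, 8.57, 8.47 and 12.0 on replicates 1 to 4. On each array 1 of the 10 spots was called well above background, at 50.4, 56.8, 48.0 and 86.1, and each of these was flagged as an outlier by the software and left out. Such single bright spots were frequent: on replicate 1, 43.0% of the 321 undetected probes printed 10 times had at least 1, and 37.3% to 40.9% did on the other arrays.

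Cxcl6, which the gene table also lists under the older name Cxcl5, is a neutrophil attractant often made by epithelial cells and had 1 spot per array. It read 22.9 on replicate 1 and 27.6 on replicate 3, and 8.86 and 11.8 on replicates 2 and 4. The 2 higher readings lay above the 95th percentile of negative controls (12.6 and 14.0) but below the dimmest spot called well above background on those arrays (36.2 and 39.1). The readings of replicates 2 and 4 lay among the values written for spots that do not stand out. Replicates 1 and 3 therefore carried a weak positive spot, which the software called significant, and replicates 2 and 4 did not. Of the negative control spots, 6.49% to 7.47% were called significant in the same way, and no fold is given for Cxcl6.

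**Figure D3:**
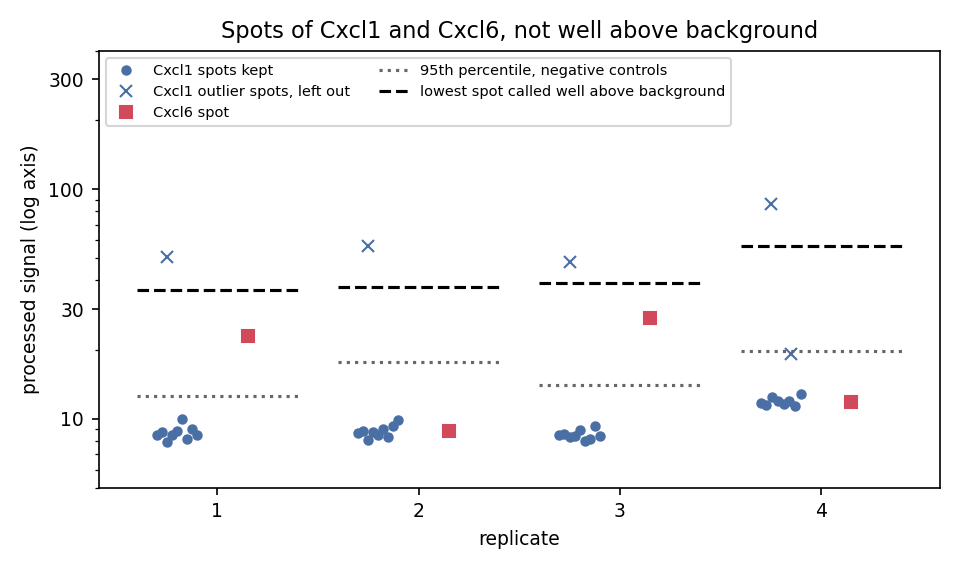
Processed signal (log axis) of the Cxcl1 spots and the Cxcl6 spot on replicates 1 to 4. Dotted lines mark the 95th percentile of negative controls, dashed lines the dimmest kept spot called well above background, and crosses the Cxcl1 spots left out as outliers. The Cxcl1 spots kept lie below the dotted line on every array, and Cxcl6 lies between the lines on replicates 1 and 3 (22.9 and 27.6) and below both on replicates 2 and 4 (8.86 and 11.8).

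Most other CXC ligands were not detected on all arrays. Of 8 with a probe, 1 was detected on all arrays, 3 on 1 array each and 4 on none. Of all named genes, 47.9% were detected on all arrays and 40.4% on none. Pf4, a platelet and macrophage chemokine, had levels of -5.49, -5.36, -5.46 and -5.12, close to where probes stop being called. The interferon-induced ligands Cxcl9 and Cxcl11, which share Cxcr3 with Cxcl10, were well above background on replicate 4 alone. By the weaker call of significant over background, Cxcl9 passed on all 4 arrays and Cxcl11 on replicates 1 and 4. Cxcl9 read -6.09, -6.51, -6.00 and -5.36 on replicates 1 to 4. Cxcl11 reached -5.04 on replicate 4, where the other arrays gave -8.16 to -8.02. Of Cxcl9, Cxcl10 and Cxcl11, Cxcl10 alone was detected on every array. Cxcl12, Cxcl13, Cxcl14 and Cxcl17 stayed undetected throughout.

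Among the CXC receptors, Cxcr1 was detected on all arrays and its close relative Cxcr2 on none. Cxcr1, a receptor of some neutrophil attractants, read -0.36, 0.05, -0.33 and 0.01 on replicates 1 to 4. The mean was -0.16 ± 0.22 (SD, n = 4), from a spot 43.5 to 65.7 times as bright as its background. Replicates 2 and 4 were high here too. Neutrophil markers beside it were 1 of 6 detected on all arrays, Camp at -2.77, -2.14, -2.72 and -2.15, while S100a8 was detected on replicate 1 alone and S100a9, Elane, Ltf and Csf3r on none. Their part in the Cxcr1 signal was not tested. Cxcr5, the receptor of Cxcl13, was well above background on replicates 1 to 3, at -5.82, -5.13 and -5.51, and only significant over background on replicate 4, at -6.86. A second Cxcr5 probe was detected on no array. Cxcr4 and the scavenging receptor Ackr3 were detected on no array. The same held for Cxcr3 and Cxcr6, the receptors of Cxcl10 and Cxcl16. Ackr1 had no named probe.

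The proteases that release Cxcl16 were both detected, with the opposite order of arrays. Adam10 had levels of -2.82, -4.30, -2.96 and -4.35 and a 2.89-fold range, high on replicates 1 and 3 where Cxcl16 was low. Adam17 read -0.99, -1.43, -1.08 and -1.34, a 1.36-fold range. Replicates 1 and 3 above replicates 2 and 4 was itself the pattern of 34.5% of genes. Mmp9 and Mmp12, proteases that can trim CXC ligands, were detected on all arrays, whereas Dpp4, which shortens Cxcl10, was detected on none.

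Genes of the NF-kB path were nearly all present: 12 of the 13 that could be measured were detected on all arrays, against 47.9% of all named genes. Of those 12, 0 had a range above 2-fold, against 13.6% of genes detected on all arrays, and 12 genes are few for such a share. Irak4, an adaptor kinase, was detected on 2 arrays, and Relb, Rel, Nfkbiz and Tnfaip3 had no named probe. Rela, which encodes the main activating subunit, read -0.32, -0.10, -0.40 and -0.15, and the inhibitor Nfkbia 0.18, 0.92, 0.29 and 0.83, both high on replicates 2 and 4. The list as a whole had no common order: 7 of the 12 genes were low on replicates 1 and 3 and 5 were high there, against 47.3% and 34.5% of all genes. The 5 were the receptor Tlr4, the adaptor Traf6 and the kinase subunits Chuk, Ikbkb and Ikbkg. The brightest Nfkb1 probe read -0.81, -0.72, -0.80 and -0.66, while a dimmer one read -4.15, -4.57, -4.26 and -4.77, so the probes of Nfkb1 went opposite ways. Of 4 genes for decay and stability of chemokine messages, 3 were detected on all arrays, against 47.9% of all named genes. These were Zfp36l1, by each of its probes, Elavl1 and Mapkapk2. Zfp36, which speeds that decay, was detected on none.

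Interferon path genes were detected on all arrays for 12 of the 15 measured, against 47.9% of all named genes. Ifnb1 and Ifng, the interferons that induce Cxcl10, and the feedback gene Socs1 were not well above background on any. Irf1, a transcription factor of interferon-gamma responses, read -0.53, -0.28, -0.57 and -0.21. Irf7, one of type I interferon responses, read -2.41, -1.83, -2.36 and -1.77. Both were high on replicates 2 and 4, like Cxcl10.

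**Figure D4:**
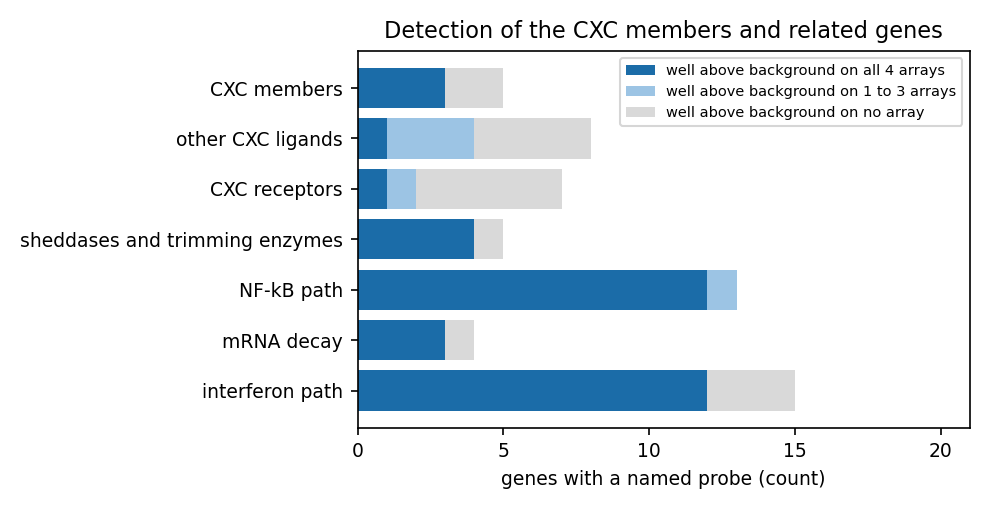
Number of genes with a named probe that were well above background on all 4 arrays, on 1 to 3 arrays or on no array, for the CXC members and 6 related lists. The NF-kB list (12 of 13) and the interferon list (12 of 15) are mostly dark, and the other ligands (1 of 8) and receptors (1 of 7) mostly grey or pale.

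Many genes followed the 4 arrays as the members did. The 3 genes with the closest deviations were Rhbdd1, Zfp746 and Eif4e for Cxcl2, Sec22b, Map2k2 and Anp32a for Cxcl10, and Rnf4, Ptafr and Arhgdia for Cxcl16. Their root mean square differences over the 4 arrays were 0.0115 to 0.0134 for Cxcl2, 0.0069 to 0.0116 for Cxcl10 and 0.0067 to 0.0077 for Cxcl16, out of 7935 genes compared. Within 0.05 there were 210 genes for Cxcl2, 485 for Cxcl10 and 486 for Cxcl16. The names depended on processing: of the 9, 1 was found again with quantile normalization and 0 with normexp background correction. All 9 recurred with the percentile of every non-control probe, which is no check, because a constant per array leaves these differences unchanged. Keeping only genes above the median level left 7, and that filter could only drop names from the 9.

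**Figure D5:**
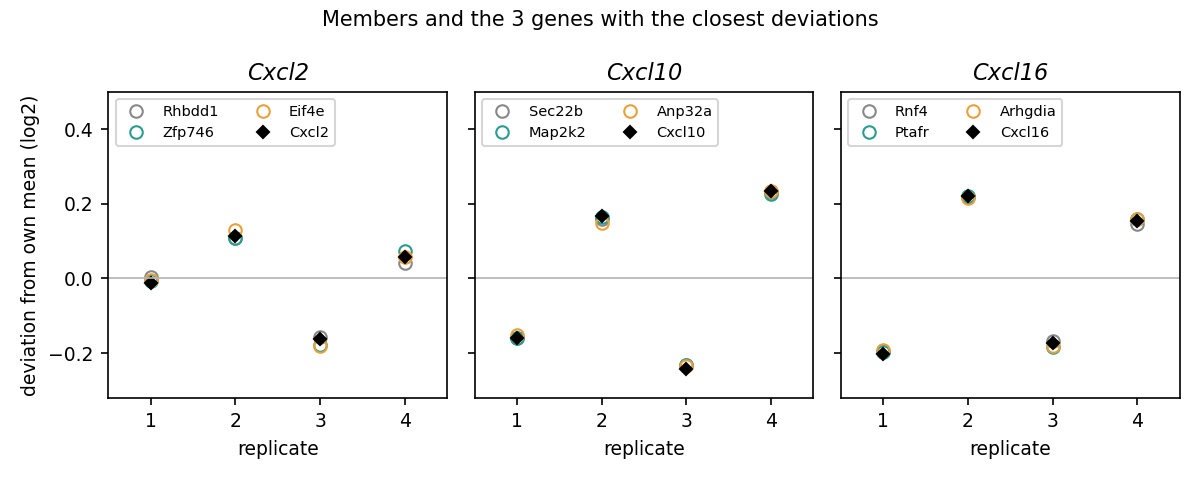
Deviation of each detected member from its own mean (black diamonds, log2) on replicates 1 to 4, with the 3 closest genes as open circles. The circles overlap the diamonds on every array, at root mean square differences of 0.0067 to 0.0134.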

How the data were processed

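Total RNA of 4 exposed NR8383 cultures was hybridised to 1-colour (Cy3) Agilent arrays of 62976 spots. The deposited files give, per spot, a processed intensity, median spot and local background intensities, and flags. Per the submitters' processing notes they came from Agilent Feature Extraction 11.0.1.1. Per the file headers, background subtraction and spatial detrending were applied to each array alone. Log2 values were computed here from the deposited intensities.

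Control spots and outlier spots (623 to 1016 per array) were left out, no spot was saturated, and spots of a probe were averaged in log2. Accessions were matched without version to the RefSeq table of GRCr8: 21109 of 45598 probes (46.3%) had 1 symbol, 0 several and 24489 none. Since 34.2% of probes were detected on all arrays, each array's 75th percentile over those probes was subtracted. A gene took its brightest probe. With 1 group there was no test between groups. The script was tested on simulated data.

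The members, lists and array pairing were chosen with earlier results of these data known. Named genes were the members, fixed partner genes and, for each detected member, the 3 genes closest by root mean square difference of deviations. Markers printed with values were chosen after their values were seen. A neighbour (within 2 rows and 2 columns) counted as raised when its signal, floored at 50, was 4-fold or more above its median in the remaining arrays. Alternatives were other detection rules, scalings (array median, all probes, quantile), normexp with an offset of 50, probe averages, kept outliers, no dim filter and leaving out each replicate. Tools were Python 3.11.15, pandas 2.3.3 and limma 3.58.1.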

Additional observations from a re-analysis of the deposited data

How the results depend on the processing

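The number of detected members was 3 in the main setting, under the 3 other detection rules and without each replicate in turn (3 to 3). The rule asking for all probes of a gene could not change it, as each measured member had 1 probe. Leaving out a replicate could not either, as each was called on all 4 arrays or on none. The count of detected members with a range above 2-fold was 0 under all scalings. It was 0 to 0 without each replicate, which had to be so because leaving out an array cannot widen a range. With no filter on dim probes it was 1, where Cxcl6 enters with 2 arrays at the value written for background spots. The split of replicates 1 and 3 against 2 and 4 held for 3 members in every setting with the filter. Averaging probes could not change this, and keeping outlier spots could only through the scaling. The split count was 3 to 3 without each replicate, added after the data were seen, and leaving out an array cannot undo a split. Without the filter it held for 4, Cxcl6 being split the other way, where 51.3% of all named genes were split. Levels under the percentile of all probes, the array median and quantile normalization have another zero and were not compared with the main ones. The other 21 recomputed member levels, 12 of them with a replicate left out, moved by less than 1 SD. Leaving out 1 of 4 arrays cannot move a mean that far. Averaging probes could not change a level, as each measured member had 1 probe, and keeping outlier spots could only through the scaling. Under normexp, the setting left as a check, Cxcl2, Cxcl10 and Cxcl16 had levels of -1.42, 0.10 and -0.93. Of 30 recomputed SDs, 8 moved by over 1.5 times, 1 of them with a replicate left out (Cxcl2 without replicate 3). Relative to the main scaling, the percentile over all non-control probes shifted the median gene by -0.17, 0.19, -0.20 and 0.18 on replicates 1 to 4, the array median by up to 0.27, and quantile normalization by up to 0.0985. Naming probes by a gene name column was not run, because the columns used here hold none, and normexp used the median spot signal. Cxcl1 and Cxcl6 have no level because their signal did not stand out from background.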

Other observations

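The 11 letters GGGAATTTCCC that Cxcl1 and Cxcl6 share in their promoters were found in 5 of 33469 promoters (0.0149%), and this string was chosen after the matches were seen. The other 3 were those of Gbp6, Optn and Retn.

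Ppbp, the platelet CXC ligand also called Cxcl7, was well above background on replicate 1 alone, with a processed signal of 148 against 7.61, 7.83 and 12.0 on replicates 2 to 4, of which replicate 4 passed the weaker call of significant over background. The neutrophil calcium-binding gene S100a8 was likewise well above background on replicate 1 alone, at 98.4 against 8.64, 8.44 and 11.8. None of the 23 spots around Ppbp was raised on replicate 1, and 1 of the 22 around S100a8 was, as on replicates 2 and 3. Each probe was printed once, and S100a8 was looked up after the values of Ppbp were seen.

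Of 22 genes detected on all arrays and checked for a single array far from the others, 0 met Dixon's criterion for 4 samples. Of all genes detected on all arrays, 81.8% were split as replicates 1 and 3 against 2 and 4. That order leaves little room for a single far array, so the 0 says little. Genes raised on a single array, such as Ppbp and S100a8, were not among the 22, so the 0 does not cover them.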
